A study of Mus musculus with 20 samples.

Results

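GYY4137, a donor that releases hydrogen sulfide slowly, was added to anti-PD1 treatment in mice with MSRT1 kidney tumours, and the tumours were compared with those of mice given anti-PD1 and vehicle. The comparison rests on 10 of the 20 bulk RNA libraries of the series, 5 labelled GYY4137 and PD1 (GYY_PD1) and 5 labelled vehicle and PD1 (Veh_PD1). The other 10 libraries, 5 GYY_IgG and 5 Veh_IgG, received a control antibody with and without the donor. They enter the fit for its estimate of the spread and serve as the same comparison without checkpoint blockade. All 20 tumours share the mouse line MSRT1, labelled renal medullary carcinoma and grown as kidney tumours. The labels call the libraries biological replicates of treated mice and give no strain, age, dose, schedule or vehicle. A tumour sample holds cancer cells together with host blood, vessels, stroma and kidney, and in such bulk RNA fewer cells of a type and less RNA per cell cannot be told apart.

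PD1 is an inhibitory receptor of activated T cells, and antibodies against it let such cells act longer against a tumour. Interferon gamma from T cells and NK cells induces guanylate-binding proteins, antigen presentation genes and CXCR3 ligands such as Cxcl9. Type I interferons are made when sensors of RNA such as Ifih1 (MDA5) or Ddx58 (RIG-I) are engaged. They induce a broad set of antiviral genes, among them Irf7, which raises interferon production further. Hydrogen sulfide is made by Cbs, Cth and Mpst and is oxidised in mitochondria, first by the sulfide:quinone oxidoreductase Sqor and then by Ethe1, a persulfide dioxygenase.

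Values are rescaled TPM: TPM (transcript abundance relative to the library total), recomputed so that nuclear protein-coding genes alone make up the total in each library. Of 19745 such genes, the 11809 with a deposited TPM of at least 1 in at least 5 of the 20 libraries were tested. Coding genes held between 2.94% and 34.9% of the deposited TPM in the 10 libraries, which the rescaling takes out. Satellite-like gene models, 13 annotated models that resemble the tandem repeat of mouse pericentromeres, held 53.6%, 25.8%, 41.5%, 83.4% and 54.8% of TPM in GYY_PD1 replicates 1 to 5 and 59.6%, 1.62%, 12.6%, 40.7% and 47.7% in Veh_PD1 replicates 1 to 5. Their mean was 51.8% ± 21.2 with the donor and 32.4% ± 24.4 without (SD, n = 5; exact permutation p = 0.198, two-sided, adjusted over 5 measures p = 0.381). Nuclear coding genes held 13.3% ± 8.67 and 20.5% ± 10.7 (exact permutation p = 0.286, adjusted p = 0.381). Neither share separated the groups.

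**Figure D1:**
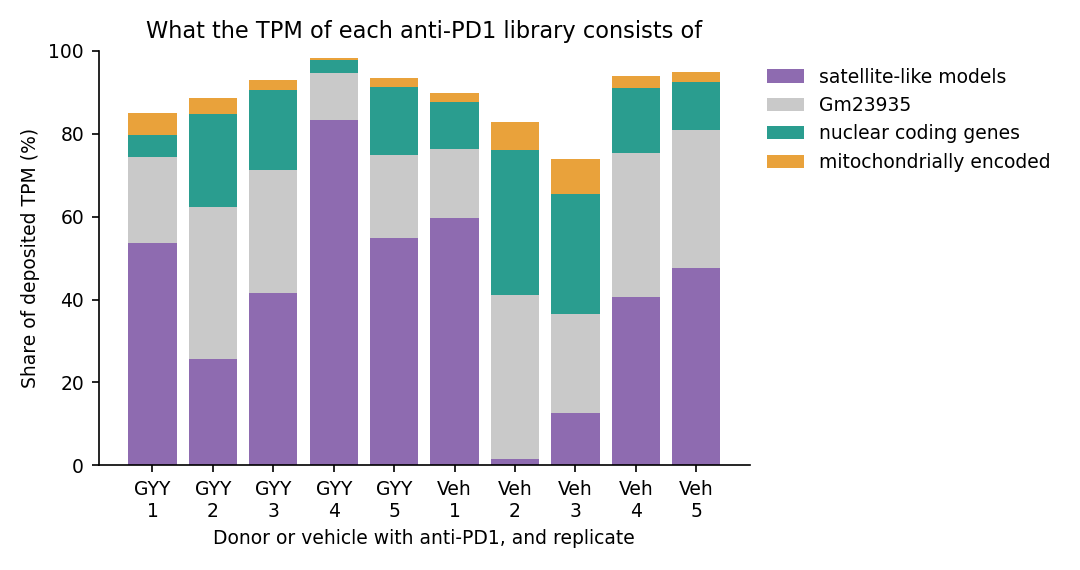
Stacked bars give the share of deposited TPM, in percent, held by satellite-like models, the abundant model Gm23935, nuclear coding genes and mitochondrially encoded genes in each anti-PD1 library. Coding genes hold 2.94% in GYY_PD1 replicate 4 and 34.9% in Veh_PD1 replicate 2, and the space above each bar is all other genes.

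A pair of donor-treated libraries stood apart. In GYY_PD1 replicate 1, 5010 coding genes reached 1 deposited TPM, Ccdc107 alone held 20.3% of the rescaled total, and the housekeeping gene Actb was at 1152 rescaled TPM, where the other 19 libraries lay between 3710 and 9579. Coding genes held 5.27% of the TPM there, and where this share is lower, 1 deposited TPM is a higher rescaled value. How far this set the number of genes was not tested. The median Spearman correlation of replicate 1 with the other libraries, over all nuclear coding genes, was 0.617. Replicate 4, where coding genes held 2.94% of TPM, had 5833 coding genes at 1 deposited TPM and a correlation of 0.888. The remaining 18 libraries had at least 9866 genes and 0.926. Differences are therefore given with replicates 2, 3 and 5 only and with all 5 GYY_PD1 libraries. Without further mention, a log2 difference below is GYY_PD1 minus Veh_PD1 on the scale log2(rescaled TPM + 1) from replicates 2, 3 and 5 against 5 Veh_PD1 libraries, and the 5 values listed for a group are those of replicates 1 to 5 in that order. The satellite-like share of the 3 was 40.7% ± 14.5, against 32.4% ± 24.4 in Veh_PD1 (SD; exact permutation p = 0.607, adjusted p = 0.929).

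No gene passed an adjusted p of 0.05 in limma when the donor was added to anti-PD1, either with all libraries (0% of the genes tested, smallest adjusted p = 0.441) or without GYY_PD1 replicates 1 and 4 (0%, smallest adjusted p = 0.252). At an unadjusted p under 0.05 there were 1154 genes with all libraries, 362 with a higher mean in GYY_PD1 (3.07% of genes tested) and 792 with a lower one (6.71%). Without replicates 1 and 4 there were 1079, now 702 higher (5.94%) and 377 lower (3.19%). The median of all genes was -0.27 with all libraries, where 28.0% of genes had a higher mean in GYY_PD1, and 0.05 without replicates 1 and 4, where 59.0% did. Leaving out replicate 1 alone gave a median of 0.04 and leaving out replicate 4 alone -0.34, so the direction that most genes took turned with replicate 1. On the deposited scale, without rescaling, these medians were -1.15 and 0.12. All 5 GYY_PD1 libraries lay above all 5 Veh_PD1 libraries for 34 genes (0.288%) and below them for 72 (0.61%). With replicates 2, 3 and 5 the counts were 271 above (2.29%) and 164 below (1.39%).

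Genes of antiviral sensing were among those with the smallest p. Irf7, the transcription factor that drives interferon production (chromosome 7, 141262706 to 141266481, mm10), had 70.4, 138, 108, 125 and 73.0 rescaled TPM in GYY_PD1 and 65.8, 48.5, 24.9, 63.4 and 30.3 in Veh_PD1. All 5 donor-treated libraries, replicate 1 included, lay above all 5 controls, and the log2 difference was 1.17 (SE 0.27) over all libraries and 1.23 (SE 0.28) without replicates 1 and 4 (limma adjusted p = 0.452 and 0.284). The cytosolic RNA sensor Ifih1 (chromosome 2, 62595798 to 62646255) had 8.20, 32.6, 35.3, 40.0 and 33.2 in GYY_PD1 and 20.6, 17.2, 19.7, 23.6 and 15.3 in Veh_PD1. Its replicates 2 to 5 lay above every control and replicate 1 below every control. The means were 33.7 ± 1.42 for replicates 2, 3 and 5 (SD, n = 3) and 19.3 ± 3.19 for Veh_PD1 (SD, n = 5), a log2 difference of 0.79 (SE 0.17, adjusted p = 0.264, and 0.45 with all libraries). Tlr3, the endosomal receptor for double-stranded RNA, had 5.85, 25.7, 24.9, 19.8 and 30.6 in GYY_PD1 and 12.02, 16.0, 16.4, 20.8 and 14.5 in Veh_PD1, with a log2 difference of 0.74 (SE 0.16, and 0.25 with all libraries). Here replicate 4 lay within the controls and replicate 1 below them. Sp100, a nuclear body protein that interferon induces, had 28.9, 86.4, 107, 141 and 105 in GYY_PD1 and 56.8, 57.2, 69.0, 69.1 and 36.9 in Veh_PD1 (log2 0.80, SE 0.18, and 0.55 with all libraries). Ifi27l2a, an interferon-induced mitochondrial protein, had 36.5, 181, 359, 178 and 138 in GYY_PD1 and 74.0, 105, 74.4, 82.3 and 34.0 in Veh_PD1 (log2 1.57, SE 0.35, and 1.03 with all libraries). Both separated from the controls in replicates 2 to 5.

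Other genes with small p in this direction had varied roles. Tmem143, a membrane protein of mitochondria, had 8.23, 17.4, 21.6, 15.1 and 19.7 rescaled TPM in GYY_PD1 and 6.20, 11.3, 8.26, 8.32 and 11.3 in Veh_PD1, 2.07-fold or a log2 difference of 1.05 (SE 0.20, adjusted p = 0.252, and 0.75 with all libraries). Cd180, a Toll-like receptor relative of B cells and macrophages, had 50.7, 15.7, 23.8, 17.6 and 16.5 in GYY_PD1 and 10.6, 6.97, 6.45, 8.94 and 3.87 in Veh_PD1. All 5 donor-treated libraries lay above all controls, at a log2 difference of 1.54 (SE 0.31) over all libraries, with the highest value in replicate 1. Hvcn1, a proton channel of phagocytes and B cells, had 78.4, 6.53, 10.5, 29.5 and 7.04 in GYY_PD1 and 3.42, 2.29, 1.21, 5.74 and 0.522 in Veh_PD1, again without overlap and with replicate 1 far above the rest. Sp110, a nuclear body relative of Sp100, had 64.7, 19.4, 22.5, 29.8 and 22.3 in GYY_PD1 and 11.2, 10.4, 15.8, 15.5 and 8.91 in Veh_PD1 (log2 0.78, SE 0.21, and 1.18 with all libraries), also above the controls in all 5. Stx2, a syntaxin of membrane fusion, and Tor1aip1, a protein of the nuclear envelope, had log2 differences of 0.49 (SE 0.11, and 0.38 with all libraries) and 0.53 (SE 0.12, and 0.41 with all libraries).

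Among genes with a lower mean, Pax8, the transcription factor of kidney epithelium (chromosome 2, 24420560 to 24475599), had 42.0, 118, 96.4, 125 and 109 rescaled TPM in GYY_PD1 and 129, 171, 169, 203 and 211 in Veh_PD1. Every donor-treated library lay below every control, at log2 -0.92 (SE 0.26) over all libraries and -0.69 (SE 0.17) without replicates 1 and 4 (adjusted p = 0.452 and 0.284). Cops9, a small subunit of the COP9 signalosome, had 19.4, 287, 225.3, 293 and 212 in GYY_PD1 and 468, 437, 534, 358 and 317 in Veh_PD1, also without overlap (log2 -0.79, SE 0.20, and -1.45 with all libraries). Rab17, a GTPase of epithelial trafficking, had 10.4, 11.2, 7.38, 17.8 and 7.14 in GYY_PD1 and 19.9, 16.5, 22.4, 16.2 and 14.9 in Veh_PD1. Its log2 difference was -0.998 (SE 0.19, and -0.74 with all libraries), with replicate 4 inside the control range. Nme2, a nucleoside diphosphate kinase, had 51.1, 42.1, 29.8, 40.8 and 20.2 in GYY_PD1 and 91.0, 78.4, 73.4, 47.4 and 48.2 in Veh_PD1, with replicate 1 inside the control range and a log2 difference of -1.13 (SE 0.23, and -0.88 with all libraries). Vamp5, a vesicle membrane protein, had 24.5, 14.7, 10.5, 7.57 and 11.8 in GYY_PD1 and 22.2, 20.1, 26.5, 20.3 and 24.5 in Veh_PD1 (log2 -0.84, SE 0.18, and -0.77 with all libraries). Replicate 1 again lay within the controls while the other donor-treated libraries lay below them. Lamtor4, a subunit of the Ragulator complex, had 158, 28.3, 38.8, 38.3 and 22.6 in GYY_PD1 and 55.3, 56.4, 34.4, 56.4 and 52.2 in Veh_PD1 (log2 -0.76, SE 0.18, and -0.21 with all libraries). Coa6, an assembly factor of cytochrome c oxidase, had 219, 14.7, 19.0, 16.2 and 15.2 in GYY_PD1 and 41.2, 35.2, 41.0, 23.5 and 20.1 in Veh_PD1 (log2 -0.89, SE 0.21, and -0.16 with all libraries). In both, replicate 1 was the highest of the 10 libraries.

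The type I interferon list, 28 genes of which 27 were measured, had 26 members with a higher mean in GYY_PD1 and a median log2 difference of 0.60, where the median of all genes was 0.05. Of the 27, 17 had an unadjusted p under 0.05, all in the higher direction, where 5.94% of all genes did, and 0 passed after adjustment over all genes. In 8 members the 3 donor-treated libraries lay above all 5 controls, where 2.29% of all genes did. With replicate 4 added this also held in 8, and the share of all genes was not counted for that setting. With all 5 libraries 19 of 27 had a higher mean, where 28.0% of all genes did, and the median was 0.42. An unadjusted p under 0.05 was reached by 6, all higher, where 3.07% of all genes were higher at that level. Irf7 alone did not overlap, where 0.288% of all genes lay above all controls. On the deposited scale the median over all libraries was -0.54, where that of all genes was -1.15. The list mean per library, on the log2 scale, was 3.77, 5.79, 5.53, 6.07 and 5.47 in GYY_PD1 and 5.32, 5.05, 4.73, 5.20 and 4.53 in Veh_PD1. Replicate 4, which held 83.4% satellite-like TPM, was the highest of the 10 libraries and replicate 1 the lowest.

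**Figure D2:**
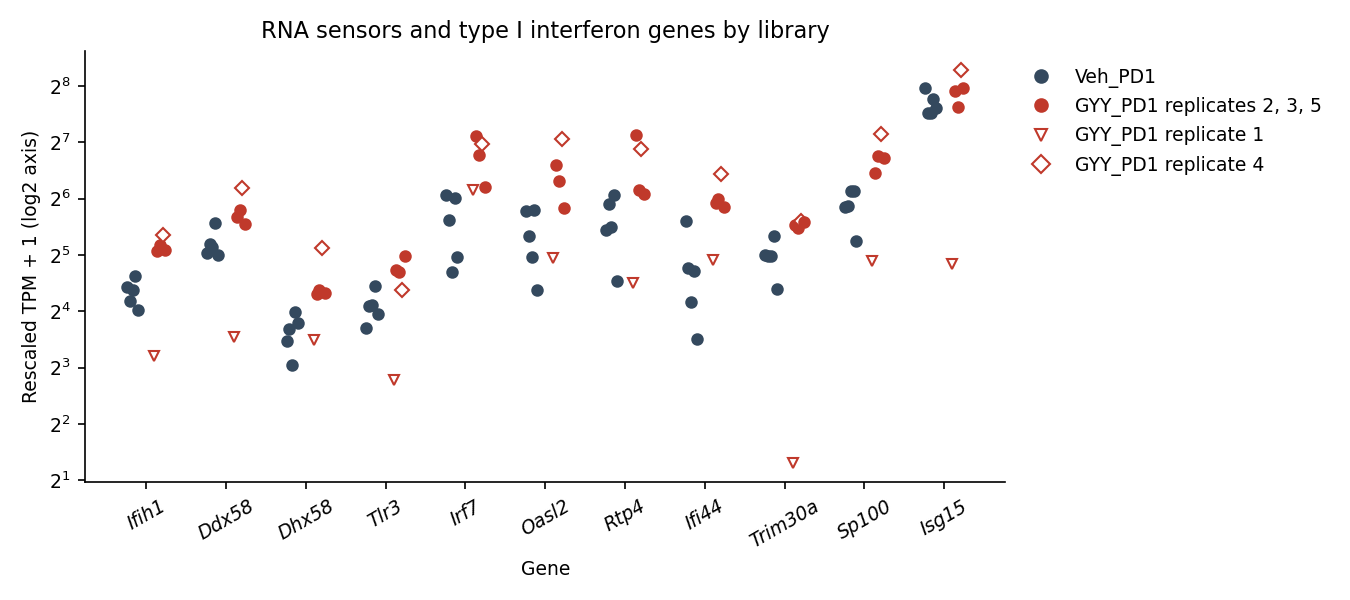
Each point is 1 library, with rescaled TPM + 1 on a log2 axis for 11 genes; open symbols mark GYY_PD1 replicates 1 and 4. Replicates 2 to 5 lie above all 5 Veh_PD1 libraries for Ifih1 (at least 32.6 against at most 23.6), while Isg15 overlaps.

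Within the list the size of the difference varied from gene to gene. The RNA sensor Ddx58 had 10.7, 50.4, 54.9, 71.7 and 46.1 rescaled TPM in GYY_PD1 and 31.8, 35.6, 34.2, 46.2 and 31.1 in Veh_PD1 (log2 0.49, SE 0.14, and 0.17 with all libraries), with replicate 5 just under the highest control. Dhx58, the regulator LGP2, had 10.3, 18.8, 19.8, 33.9 and 19.0 in GYY_PD1 and 10.1, 11.8, 7.26, 14.8 and 12.9 in Veh_PD1 (log2 0.74, SE 0.23, and 0.73 with all libraries), and replicates 2 to 5 lay above the controls. Oasl2, which resembles the 2-5A synthetases, had 29.7, 95.6, 78.5, 133 and 56.1 in GYY_PD1 and 54.3, 39.2, 30.3, 54.5 and 19.8 in Veh_PD1 (log2 0.99, SE 0.31, and 0.90 with all libraries), and Ifi44, a GTP-binding antiviral protein, 29.1, 60.0, 62.6, 85.4 and 56.6 in GYY_PD1 and 47.5, 26.1, 16.98, 25.1 and 10.4 in Veh_PD1 (log2 1.37, SE 0.45, and 1.27 with all libraries). For both, replicate 1 lay inside the control range. Trim30a, an interferon-induced ubiquitin ligase, had 1.49, 45.2, 43.8, 47.3 and 46.9 in GYY_PD1 and 31.1, 30.4, 30.5, 39.4 and 20.01 in Veh_PD1 (log2 0.60, SE 0.16, and -0.24 with all libraries), with replicates 2 to 5 within a narrow range above the controls. Rtp4, Zbp1, Isg15, Oas2 and Ifi27 were chosen after their values were seen. Rtp4, a chaperone of receptors, and Zbp1, a sensor of left-handed nucleic acid, had log2 differences of 0.96 (SE 0.31, and 0.66 with all libraries) and 1.24 (SE 0.40, and 0.76 with all libraries). Zbp1 had 18.6, 154, 108, 137 and 102 in GYY_PD1 and 106, 46.6, 30.2, 101 and 19.9 in Veh_PD1, so that replicate 5 lay inside the control range. Isg15, the ubiquitin-like modifier, had 27.8, 241, 196, 309 and 248.8 in GYY_PD1 and 248, 183, 183, 216 and 194 in Veh_PD1, a log2 difference of 0.16 (SE 0.18, and -0.35 with all libraries), and Oas2 and Ifi27 had 0.02 and -0.04. These 3 differences were smaller than the spread between libraries, and Isg15 replicates 2 and 3 lay inside the control range. Markers of other cells had higher means beside this list, with medians of 0.80 for monocytes, 0.52 for macrophages and 0.67 for endothelium, and their part in the interferon values was not tested.

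To set these differences beside sequence, 4 promoters are shown: Isg15 and Ifit1, both picked after their values were seen, because they carry the sequence that interferon regulatory factors bind, Irf7 because its groups did not overlap, and Sqor, the leading sulfide gene. Each is the 250 bases before the transcription start from RefSeq on GRCm38.p6, read along the strand of the gene, with each match in capitals: 2 copies of GAAA with 2 bases between them, on either strand (on the opposite strand both copies read TTTC).
Isg15: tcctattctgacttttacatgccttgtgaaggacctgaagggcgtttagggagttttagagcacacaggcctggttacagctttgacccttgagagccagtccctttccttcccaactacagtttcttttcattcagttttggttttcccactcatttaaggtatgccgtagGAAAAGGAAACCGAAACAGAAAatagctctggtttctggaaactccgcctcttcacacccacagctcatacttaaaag
Ifit1: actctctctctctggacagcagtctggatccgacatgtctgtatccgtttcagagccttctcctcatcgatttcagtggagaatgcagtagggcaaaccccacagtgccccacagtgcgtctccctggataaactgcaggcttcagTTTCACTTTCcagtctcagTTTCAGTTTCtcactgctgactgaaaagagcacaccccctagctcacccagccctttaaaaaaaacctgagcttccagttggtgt
Irf7: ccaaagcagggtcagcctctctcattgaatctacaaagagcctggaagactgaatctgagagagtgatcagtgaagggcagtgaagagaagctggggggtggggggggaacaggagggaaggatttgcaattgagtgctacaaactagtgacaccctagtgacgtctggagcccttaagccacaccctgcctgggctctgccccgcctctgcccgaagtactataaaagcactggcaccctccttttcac
Sqor: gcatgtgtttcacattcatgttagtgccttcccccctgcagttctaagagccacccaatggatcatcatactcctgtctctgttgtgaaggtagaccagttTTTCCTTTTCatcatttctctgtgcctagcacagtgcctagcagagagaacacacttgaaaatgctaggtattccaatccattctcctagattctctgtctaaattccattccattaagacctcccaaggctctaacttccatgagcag
The windows are chr4:156200819-156201068 on the minus strand for Isg15, chr19:34640639-34640888 on the plus strand for Ifit1, chr7:141266425-141266674 on the minus strand for Irf7 and chr2:122771463-122771712 on the plus strand for Sqor. The RefSeq starts of Sqor and Irf7 lie inside the GENCODE spans given with their values. The Sqor window lies wholly, and the Irf7 window partly, within the span of its gene. Isg15 holds 3 overlapping matches, Ifit1 holds 2, Sqor holds 1 that begins 149 bases before the start, and Irf7 holds none in this window. Of 9309 tested genes with an entry, 3.31% hold a match, and of 27025 genes with an entry 3.46%. Among the type I list, 10 of the 19 members matched by symbol did (52.6%). Beside these windows the log2 difference was 0.16 for Isg15, 0.97 for Ifit1, 1.23 for Irf7 and 0.86 for Sqor.

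Genes of the interferon gamma response had a larger median difference but a wider spread among the controls. Of 19 measured members of 22, 18 had a higher mean, where 59.0% of all genes did. An unadjusted p under 0.05 was reached by 10, all higher, where 5.94% of all genes were higher at that level, and the median was 0.92 (0.74 with all libraries, 16 of 19 higher). In no member were the groups separated. The list mean was 4.46, 6.08, 5.48, 5.22 and 5.12 in GYY_PD1 and 5.77, 4.67, 3.96, 5.52 and 3.42 in Veh_PD1. Veh_PD1 replicates 1 and 4 reached the level of the donor-treated libraries, and replicates 2, 3 and 5 lay below replicates 2 to 5 of GYY_PD1. Gbp7, a guanylate-binding protein, had 31.4, 95.8, 65.6, 41.6 and 71.5 in GYY_PD1 and 57.1, 38.1, 35.1, 67.6 and 28.5 in Veh_PD1 (log2 0.82, SE 0.26, and 0.39 with all libraries), and the GTPase Irgm1 63.1, 209, 105, 88.8 and 83.9 in GYY_PD1 and 111, 58.6, 46.7, 81.4 and 30.6 in Veh_PD1 (log2 1.02, SE 0.34, and 0.74 with all libraries). Cxcl9, which attracts T cells through CXCR3, had 16.6, 83.9, 32.6, 24.1 and 31.3 in GYY_PD1 and 66.7, 19.6, 2.95, 60.9 and 1.76 in Veh_PD1. The controls ran from 1.76 to 66.7, all but 1 donor-treated library lay within that range, and the log2 difference was 1.53 (SE 0.83, adjusted p = 0.596, and 1.09 with all libraries). Gbp2, another guanylate-binding protein, had 68.5, 252.03, 108, 107 and 104 in GYY_PD1 and 109.9, 54.7, 28.4, 143 and 24.6 in Veh_PD1 (log2 1.29, SE 0.49, and 1.01 with all libraries), with GYY_PD1 replicate 2 the highest of the 10 libraries.

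MHC class I presentation genes had a smaller median. All 21 members were measured, 19 had a higher mean with a median of 0.39 (0.07 and 11 of 21 with all libraries), and 12 had an unadjusted p under 0.05, all higher, where 5.94% of all genes were higher at that level. In 5 members replicates 2, 3 and 5 lay above all controls, where 2.29% of all genes did. In 2 of these, B2m and H2-D1, replicate 4 did as well, a setting for which the share of all genes was not counted. Their log2 differences were 0.34 (SE 0.13, and -0.25 with all libraries) and 0.39 (SE 0.16, and -0.18 with all libraries). Both were named after their values were seen. H2-T22, a nonclassical class I molecule, had 261, 123, 93.8, 92.6 and 103 rescaled TPM in GYY_PD1 and 93.0, 72.6, 70.0, 90.9 and 64.4 in Veh_PD1 (log2 0.45, SE 0.13, and 0.67 with all libraries). Erap1, which trims peptides for loading, had 260.5, 47.3, 42.6, 33.5 and 41.8 in GYY_PD1 and 26.3, 36.3, 27.3, 36.4 and 23.7 in Veh_PD1 (log2 0.55, SE 0.17, and 0.99 with all libraries). In both, replicate 1 was far above all other libraries. As H2-T22 belongs to a family of near-identical genes, its reads may be shared with relatives. Class II genes had a median of 0.68 (0.27 with all libraries) with 10 of 12 higher and 1 at an unadjusted p under 0.05, the cathepsin Ctss (log2 0.79, SE 0.31, and 0.20 with all libraries), where 5.94% of all genes were higher at that level. The class II median was 0.24 without Veh_PD1 replicate 5 and 0.37 without GYY_PD1 replicate 2.

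Checkpoint ligands and receptors had 11 of 12 measured members higher, a median of 0.46 (0.23 and 7 of 12 with all libraries) and 3 with an unadjusted p under 0.05: Cd276 (B7-H3), Lgals9 (galectin-9) and Havcr2 (TIM-3). Of all genes 5.94% were higher at that level. Without GYY_PD1 replicate 3 the median was 0.28. Cd276 had 8.85, 10.7, 20.6, 13.9 and 16.8 rescaled TPM in GYY_PD1 and 11.4, 8.36, 6.43, 9.11 and 10.6 in Veh_PD1 (log2 0.72, SE 0.22, and 0.54 with all libraries), with replicates 1 and 2 of GYY_PD1 inside the control range. Cd274, which encodes the PD1 ligand PD-L1, had 9.30, 51.6, 52.9, 70.4 and 31.4 in GYY_PD1 and 52.4, 21.2, 32.3, 45.2 and 36.4 in Veh_PD1. The groups overlapped at a log2 difference of 0.29 (SE 0.29, adjusted p = 0.768, and 0.00 with all libraries). The other 7 members stayed under the filter, Pdcd1 among them. Pdcd1 itself, the target of the antibody, had deposited TPM of 0, 1.21, 0.386, 0.197 and 0.190 in GYY_PD1 and 0, 0.455, 0.173, 0.454 and 0.0925 in Veh_PD1. At such levels no direction can be given.

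Lymphocyte transcripts were few. Of 18 T cell markers 6 were measured, all 6 with a higher mean and a median of 0.54 (0.43 and 5 of 6 with all libraries). Cd3g, a chain of the T cell receptor complex (chromosome 9, 44969572 to 44980431), had 11.4, 12.2, 7.99, 5.03 and 6.84 rescaled TPM in GYY_PD1 and 2.99, 1.10, 0.724, 6.38 and 0 in Veh_PD1, a log2 difference of 1.94 (SE 0.51, adjusted p = 0.334, and 1.87 with all libraries). Its partner Cd3e had 15.4, 9.36, 5.59, 5.13 and 5.90 in GYY_PD1 and 7.68, 2.36, 1.15, 15.3 and 4.89 in Veh_PD1, a log2 difference of 0.45 (SE 0.49, and 0.60 with all libraries), with the second highest value in Veh_PD1 replicate 4. Cd3g deposited TPM were no higher than 2.74 in any of the 10 libraries. Without the GYY_PD1 libraries, Cd3g, Cd3e and the list member Cd2 would not have reached 1 deposited TPM in 5 libraries. Their entry into the test depended on the group compared, so their differences and the list median are not independent of the filter. Cd3g gave 1.94 with a pseudocount of 1, 2.95 with 0.1 and 1.00 with 5. Cd8a had deposited TPM of 0.211, 2.14, 0.603, 0.0305 and 0.111 in GYY_PD1 and 0.637, 0.277, 0.156, 0.443 and 0.0299 in Veh_PD1. Gzmb, the cytotoxic protease, had 0.224, 0.955, 1.15, 0.0698 and 0.179 in GYY_PD1 and 0.273, 0.126, 0.193, 0.107 and 0.0652 in Veh_PD1, and Ifng had 0.274, 0.912, 0, 0 and 0 in GYY_PD1 and 0.322, 0.102, 0.118, 0.133 and 0 in Veh_PD1. GYY_PD1 replicate 2 was the highest of the 10 for Cd8a and Ifng, and replicate 3 for Gzmb. Ccl5, the single measured gene of 17 cytotoxic and NK cell markers, had 29.9, 12.8, 23.02, 35.1 and 27.3 in GYY_PD1 and 30.9, 5.65, 0.584, 5.09 and 8.10 in Veh_PD1 rescaled TPM (log2 1.56, SE 0.67, and 1.83 with all libraries).

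Genes that make and oxidise hydrogen sulfide had a median difference near 0. Of 17 measured members 10 had a higher mean, the median was 0.01 (-0.42 and 4 of 17 higher with all libraries), and 1 had an unadjusted p under 0.05, where 5.94% of all genes were higher at that level. A share of 1 in 17 is near that background. The sign of the median changed with the scaling. The gene was Sqor, the first enzyme of sulfide oxidation (chromosome 2, 122765237 to 122809569), with 6.60, 48.4, 85.3, 61.7 and 73.8 rescaled TPM in GYY_PD1 and 34.9, 33.1, 31.2, 39.6 and 46.0 in Veh_PD1. Replicates 2 to 5 lay above every control and replicate 1, at 6.60, below every control. The means were 69.2 ± 18.9 for replicates 2, 3 and 5 (SD, n = 3) and 36.9 ± 5.93 for Veh_PD1 (SD, n = 5). The log2 difference, fitted on log2(rescaled TPM + 1), was 0.86 (SE 0.22, limma adjusted p = 0.334), which is 1.82-fold on that scale. With all libraries it was 0.20 (SE 0.45). Over 23 alternatives without replicates 1 and 4 it ran from 0.68 to 1.10. Ethe1, which acts after Sqor, had 20.5, 119, 66.2, 77.5 and 87.5 in GYY_PD1 and 131, 169, 112, 128 and 107 in Veh_PD1 (log2 -0.52, SE 0.28, and -0.97 with all libraries), in the opposite direction and with replicate 2 inside the control range. Cth, which produces sulfide from cysteine, had 10.5, 87.2, 84.9, 71.5 and 85.3 in GYY_PD1 and 102, 98.3, 101, 89.4 and 99.5 in Veh_PD1. All 5 donor-treated libraries lay below all 5 controls, and the log2 difference was -0.19 (SE 0.15, adjusted p = 0.709, and -0.82 with all libraries). Mpst, a mitochondrial source of sulfide, had 4.31, 47.8, 56.4, 24.4 and 46.5 in GYY_PD1 and 53.3, 62.9, 32.3, 80.3 and 64.0 in Veh_PD1 (log2 -0.16, SE 0.21, and -1.02 with all libraries). Cbs had 7.21, 2.08, 2.66, 24.8 and 6.21 in GYY_PD1 and 10.1, 1.95, 2.60, 6.45 and 1.05 in Veh_PD1 (log2 -0.05, SE 0.61, and 0.65 with all libraries), with wide overlap.

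**Figure D3:**
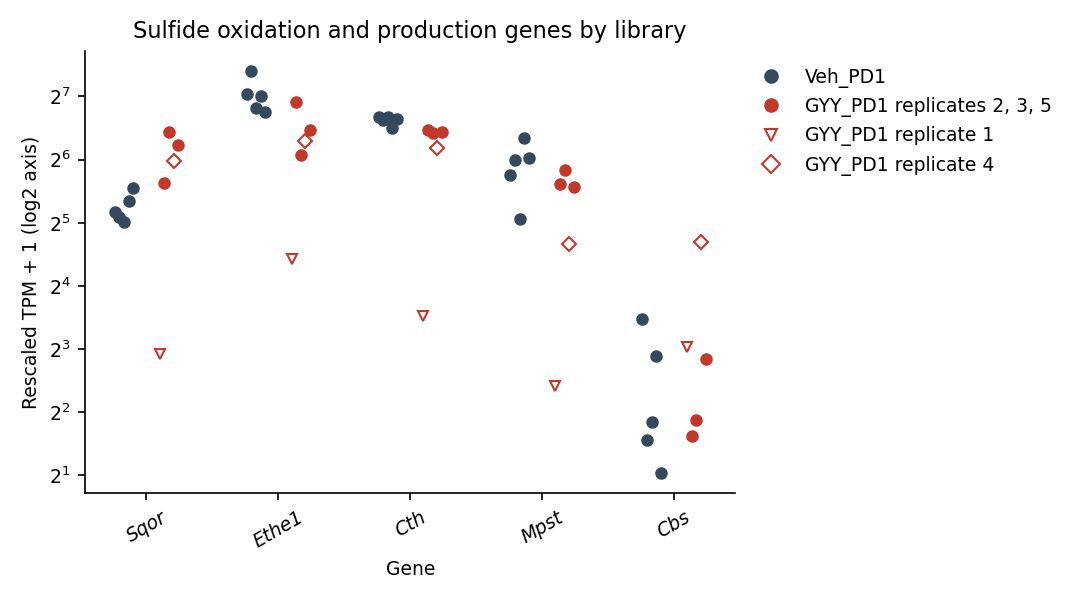
Each point is 1 library, with rescaled TPM + 1 on a log2 axis for 5 genes of sulfide metabolism; open symbols mark GYY_PD1 replicates 1 and 4. Sqor lies between 48.4 and 85.3 rescaled TPM in replicates 2 to 5 and between 31.2 and 46.0 in Veh_PD1, while Cth, Ethe1 and Mpst lie lower or overlap.

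Targets of NRF2, the antioxidant regulator that electrophiles and sulfur compounds can release, were balanced. Of 24 measured, 13 had a higher mean, with a median of 0.02, whose sign changed with the scaling (-0.41 and 3 of 24 with all libraries). Heme oxygenase Hmox1 had 77.1, 334, 438, 933 and 441 rescaled TPM in GYY_PD1 and 652, 284, 246, 739 and 563 in Veh_PD1 (log2 -0.17, SE 0.34, and -0.40 with all libraries), and the quinone reductase Nqo1 3.89, 24.6, 20.8, 15.1 and 22.96 in GYY_PD1 and 24.4, 24.5, 20.8, 19.9 and 28.3 in Veh_PD1 (log2 -0.04, SE 0.21, and -0.61 with all libraries). For both, replicates 2, 3 and 5 lay inside the control range and replicate 1 below it. The malic enzyme Me1 was the single member with an unadjusted p under 0.05 (log2 0.50, SE 0.23, and -0.11 with all libraries), a share of the list below the 5.94% of all genes higher at that level, and its highest value was 131 in replicate 3. Ferroptosis and iron handling genes had a median of 0.12 with 10 of 17 higher (-0.42 with all libraries), and this sign changed when satellite-like models were kept in the coding total.

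The tumour identity genes were present in both groups. Smarcb1, the SWI/SNF subunit whose loss defines renal medullary carcinoma in patients, was measured at 29.3, 84.7, 84.8, 39.7 and 106 rescaled TPM in GYY_PD1 and 65.2, 66.6, 46.8, 81.9 and 69.2 in Veh_PD1, so its transcript was not absent from these bulk samples. The deposited TPM were 1.54, 19.0, 16.4, 1.17 and 17.4 in GYY_PD1 and 7.31, 23.2, 13.5, 12.9 and 8.13 in Veh_PD1. The share of host cells in it is not given by these data. Replicates 2, 3 and 5 lay above all controls and replicates 1 and 4 below all of them, with a log2 difference of 0.49 (SE 0.19) without the latter and -0.07 (SE 0.29) with them. Of 20 SWI/SNF subunits, Smarcb1 included, 16 had a higher mean, with a median of 0.19 (4 of 20 and -0.09 with all libraries), and Smarcc2 and Arid1a had 0.27 (SE 0.11, and -0.09 with all libraries) and 0.39 (SE 0.18, and 0.02 with all libraries). Of 12 epithelial markers, 5 had a higher mean with a median of -0.12 (-0.24 with all libraries), whose sign turned without GYY_PD1 replicate 5 (0.06), Veh_PD1 replicate 1 (0.03) or Veh_PD1 replicate 4 (0.01). The keratins Krt8 and Krt18 had log2 differences of 0.25 (SE 0.29, and -0.20 with all libraries) and 0.21 (SE 0.24, and -0.35 with all libraries), and Krt8 lay at 156, 655, 499, 515 and 754 in GYY_PD1 and 491, 512, 368, 591 and 739 in Veh_PD1. Pax8, described above, was the one member whose groups did not overlap. Of all genes, 0.61% lay below all controls with all libraries and 1.39% without replicates 1 and 4.

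Among myeloid cells, monocyte and macrophage markers had higher means with the donor. For monocytes 10 of 12 measured markers were higher, with a median of 0.80 (0.37 with all libraries), 3 with an unadjusted p under 0.05 in this direction and 1, the transglutaminase F13a1, in the other (log2 -0.57, SE 0.25, and -1.02 with all libraries). Of all genes 5.94% were higher and 3.19% lower at that level. Ly6c2, the surface marker of inflammatory monocytes, had 6.78, 34.9, 15.0, 37.6 and 20.1 rescaled TPM in GYY_PD1 and 18.5, 6.77, 5.26, 13.1 and 3.81 in Veh_PD1 (log2 1.33, SE 0.38, and 1.16 with all libraries), and replicates 1 and 3 lay inside the control range. Ccr2, the receptor that brings them into tissue, had 16.2, 60.9, 120.5, 68.1 and 78.8 in GYY_PD1 and 52.7, 37.1, 58.0, 58.5 and 23.6 in Veh_PD1 (log2 0.92, SE 0.40, and 0.40 with all libraries), with replicates 2 to 5 above every control. Macrophage markers had a median of 0.52, with 16 of 19 higher and 6 at an unadjusted p under 0.05, all higher (where 5.94% of all genes were higher at that level), but 0.03 and 10 of 19 with all libraries. Adgre1 (F4/80) had 7.07, 43.2, 58.3, 40.6 and 37.9 in GYY_PD1 and 44.5, 30.01, 20.97, 35.8 and 12.4 in Veh_PD1 (log2 0.77, SE 0.29, and 0.23 with all libraries), with replicates 2, 3 and 5 within 37.9 to 58.3 and Veh_PD1 replicate 1 at 44.5. Fcgr1, a high-affinity Fc receptor, had a log2 difference of 0.88 (SE 0.31, and 0.54 with all libraries). For neutrophils the median was 0.18, with 7 of 13 higher (-0.13 with all libraries). Its sign turned with 1 library: it was -0.02 without GYY_PD1 replicate 2, -0.08 without GYY_PD1 replicate 3, -0.11 without Veh_PD1 replicate 2 and 0.54 without GYY_PD1 replicate 5. Dendritic cell markers had 0.54, with 7 of 7 higher (0.56 with all libraries), and 0.93 without GYY_PD1 replicate 2 and 0.85 without Veh_PD1 replicate 1. The list member Ccr7 reached 1 deposited TPM in 5 libraries only with the GYY_PD1 libraries counted. The count of 7 and the list median are thus not independent of the filter.

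Stromal and fat markers were highest in 1 library. The adipocyte list had all 11 measured members of 16 higher, a median of 2.23 (1.84 with all libraries) and 7 with an unadjusted p under 0.05, all higher (where 5.94% of all genes were higher at that level), and its list mean was 4.15, 3.89, 8.80, 3.33 and 4.61 in GYY_PD1 and 3.82, 2.81, 2.87, 4.20 and 2.99 in Veh_PD1. GYY_PD1 replicate 3 stood far above all others, and without it the median was 0.72. The list members Adipoq and Cidec reached 1 deposited TPM in 5 libraries only with the GYY_PD1 libraries counted, so their differences are not independent of the filter. The fat hormone Adipoq had 0, 5.92, 422, 5.39 and 10.4 rescaled TPM in GYY_PD1 and 1.38, 0, 0.565, 4.66 and 0.627 in Veh_PD1, and Lpl, the lipoprotein lipase, 21.9, 32.9, 573, 22.2 and 35.4 in GYY_PD1 and 24.5, 20.7, 19.1, 18.3 and 19.2 in Veh_PD1. Replicate 3 was likewise the highest for fibroblast markers, whose list mean was 3.75, 3.42, 7.01, 3.77 and 4.70 in GYY_PD1 and 3.96, 3.30, 3.01, 4.72 and 3.08 in Veh_PD1. All 17 had a higher mean, with a median of 1.28 (0.92 with all libraries), which was 0.29 without replicate 3. The list member Fap reached 1 deposited TPM in 5 libraries only with GYY_PD1 replicate 3 counted. The count of 17 and the list median are thus not independent of the filter. Col1a1, the main fibrillar collagen, had 52.1, 14.5, 711, 21.4 and 101 in GYY_PD1 and 14.2, 16.99, 12.4, 57.6 and 12.7 in Veh_PD1. Endothelial markers had all 15 measured members higher with a median of 0.67 (0.32 with all libraries), which was 0.12 without replicate 3. Among them Ehd3 reached 1 deposited TPM in 5 libraries only with GYY_PD1 replicate 3 counted, so this count and median also depend on the filter. Cdh5 (VE-cadherin) had 8.61, 28.0, 106, 30.9 and 44.0 in GYY_PD1 and 16.6, 34.8, 26.3, 30.1 and 25.4 in Veh_PD1. Kidney proximal tubule markers had a median of 0.81 with 13 of 16 higher (0.33 with all libraries), and 0.19 without replicate 3. The type I interferon median without this library was 0.62, the monocyte median 0.23 and the macrophage median 0.31. Without Veh_PD1 replicate 5 the macrophage median was 0.26 and the monocyte median 0.52.

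Erythroid genes were lower in all 7 measured members, with a median of -1.12 (-1.54 with all libraries) and 5 of 7 at an unadjusted p under 0.05, where 3.19% of all genes were lower at that level. The list mean was 1.61, 4.48, 4.52, 4.45 and 3.15 in GYY_PD1 and 5.08, 5.01, 4.60, 4.59 and 5.84 in Veh_PD1, so that the 5 donor-treated libraries lay below the 5 controls, by a narrow margin between 4.52 and 4.59. In no single member were the groups separated, either with all libraries or without replicates 1 and 4. The adult beta globin Hbb-bs had 0, 172, 179, 178 and 24.5 rescaled TPM in GYY_PD1 and 257, 243, 155, 193 and 675 in Veh_PD1 (log2 -1.51, SE 0.61, and -2.63 with all libraries), with replicates 2 to 4 inside the control range, replicate 5 below it, replicate 1 listed at 0 and Veh_PD1 replicate 5 the highest. As globin genes are near-identical copies, their reads may be shared. Alas2, the erythroid enzyme of heme synthesis, had 18.3, 4.31, 5.46, 10.3 and 1.67 in GYY_PD1 and 8.12, 6.14, 5.09, 8.21 and 20.6 in Veh_PD1 (log2 -1.08, SE 0.45, and -0.40 with all libraries). Without GYY_PD1 replicate 5 the median of the list was -0.57.

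**Figure D4:**
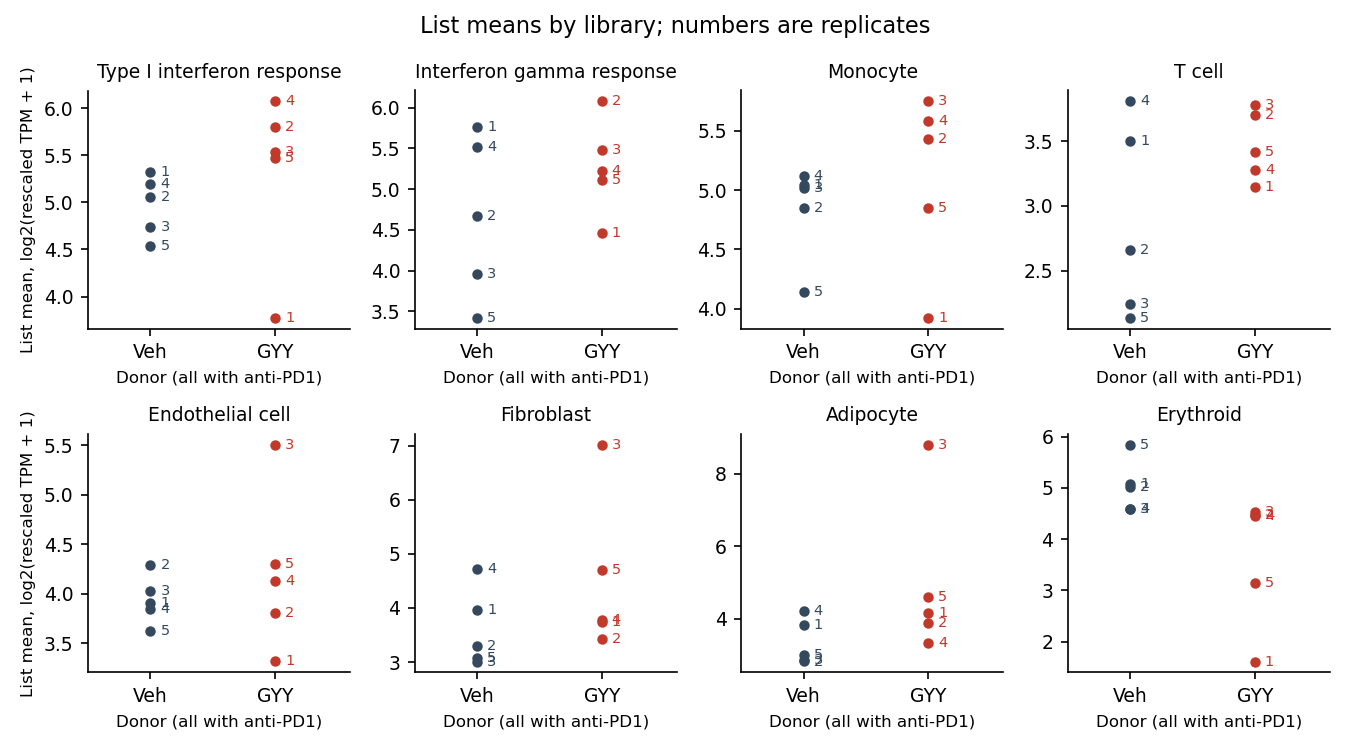
Each panel gives the mean log2(rescaled TPM + 1) over the measured members of 1 list in every anti-PD1 library, with replicate numbers beside the points. GYY_PD1 replicate 3 is at 8.80 for adipocyte markers, where no other library exceeds 4.61, and GYY_PD1 replicate 1 is the lowest for the type I interferon, monocyte, endothelial and erythroid lists.

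Genes of core metabolism and growth showed small medians. Oxidative phosphorylation had 9 of 22 members higher, a median of -0.09 and 3 with an unadjusted p under 0.05, all lower, where 3.19% of all genes were lower at that level. Of all genes 59.0% had a higher mean. Cox5a, a subunit of complex IV, had 198, 146, 122, 63.5 and 158 rescaled TPM in GYY_PD1 and 194, 223, 234, 173 and 150.3 in Veh_PD1 (log2 -0.44, SE 0.13, and -0.57 with all libraries), with Veh_PD1 replicates 1, 4 and 5 within the donor-treated range. Cox6c and Ndufb5 had -0.59 (SE 0.27, and -0.48 with all libraries) and -0.36 (SE 0.17, and -0.74 with all libraries). Cytosolic ribosomal protein genes had 23 of 24 members lower with a median of -0.21 (-0.12 without GYY_PD1 replicate 5 or without Veh_PD1 replicate 3), led by Rpl37 and Rpl18 (log2 -0.56, SE 0.21, and -1.65 with all libraries, and -0.34, SE 0.15, and -0.40 with all libraries). Mitosis genes had a median of 0.10, DNA replication genes 0.16, glycolysis 0.06, hypoxia response -0.09, MYC targets -0.02, p53 targets -0.01 and the unfolded protein response -0.04. Medians this close to 0 changed sign with the scaling for glycolysis, mitosis, MYC targets, p53 targets and the unfolded protein response. With all libraries the medians of these 9 lists lay between -0.79 and -0.30, where the median of all genes was -0.27 and GYY_PD1 replicate 1 had the lowest list mean of the 10 libraries in each.

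**Figure D5:**
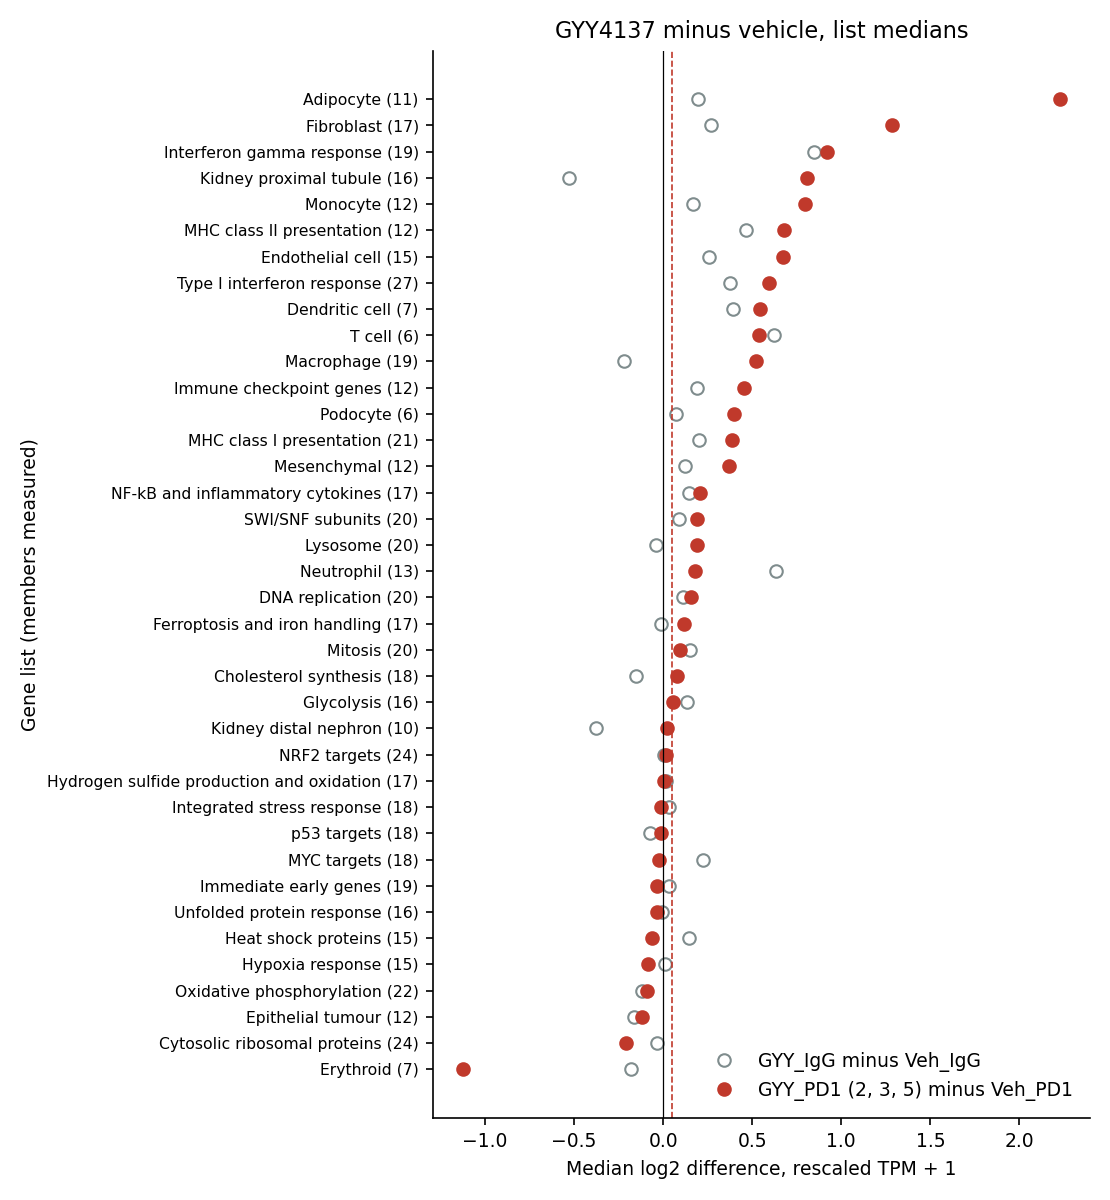
For the lists with at least 5 measured members, filled points give the median log2 difference of GYY_PD1 replicates 2, 3 and 5 minus Veh_PD1, and open points that of GYY_IgG minus Veh_IgG; the dashed line is the median of all genes under anti-PD1 (0.05). Type I interferon lies at 0.60 and 0.38, interferon gamma at 0.92 and 0.84, and erythroid at -1.12 and -0.18.

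The same donor under the control antibody gave 0 genes at an adjusted p of 0.05 (0%; 59 at an unadjusted p under 0.05 in the fit of all libraries and 463 in the fit of 18), and 0 genes had an effect of the donor that differed between antibodies (0%; limma interaction term, 155 genes at an unadjusted p under 0.05 with all libraries and 338 without replicates 1 and 4, smallest adjusted p = 0.794 and 1). For the type I list the median under the control antibody was 0.38 with 26 of 27 higher, and the median of the difference between the antibodies was 0.21. Without replicates 1 and 4, this difference had an unadjusted p under 0.05 in 1 of the 27 members and in 338 of all 11809 genes tested. Interferon gamma genes had 0.84 under the control antibody and a difference of 0.07. Sqor had 0.27 (SE 0.19) under the control antibody against 0.86 (SE 0.22) under anti-PD1, a difference of 0.59 (SE 0.29, adjusted p = 1.00). Irf7 had 0.52 (SE 0.24) and a difference of 0.71 (SE 0.37). Ifi27l2a had -0.03 (SE 0.31) under the control antibody, a difference of 1.596 (SE 0.47). Genes with the smallest p for the interaction included Trim13, a ubiquitin ligase of the endoplasmic reticulum, at 1.34 (SE 0.33), and Pltp, a phospholipid transfer protein, at 0.97 (SE 0.25). Trim13 had 3.90, 8.23, 8.34, 4.33 and 9 rescaled TPM in GYY_PD1 and 4.45, 3.21, 5.05, 2.49 and 2.53 in Veh_PD1, with replicates 2, 3 and 5 above the controls, and -0.24 (SE 0.22) under the control antibody. Pltp had 743, 471, 487, 281 and 473 rescaled TPM in GYY_PD1 and 283, 275, 175, 324 and 341 in Veh_PD1, where replicate 4 was the one donor-treated library inside the control range. In the lower direction Apip, an enzyme of methionine salvage, had 7.37, 68.9, 61.2, 56.1 and 63.7 in GYY_PD1 and 87.3, 81.3, 96.2, 86.1 and 85.5 in Veh_PD1, without overlap, and a difference between the antibodies of -0.57 (SE 0.15), with Exosc3, a subunit of the RNA exosome, at -0.76 (SE 0.19). None of these passed after adjustment (adjusted p of at least 0.794 for the interaction in both fits).

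Libraries rich in satellite-like models could be compared with each other. With the 3 GYY_PD1 libraries 2, 3 and 5 and the 3 Veh_PD1 libraries above 20% (replicates 1, 4 and 5), the type I interferon median was 0.59 with 25 of 27 members higher, the interferon gamma median 0.68, the MHC class I median 0.26 and the difference of Sqor 0.74. Irf7 had 1.02 and Ifih1 0.76 there. With the satellite-like share as a covariate, the values were 0.62, 0.90 and 0.36 for the 3 lists and 0.82 for Sqor. Both settings were chosen after seeing the data.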

How the data were processed

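RNA from 20 MSRT1 kidney tumours was sequenced after Nextera XT library construction, per the labels' protocols. The deposited table holds log2 TPM for 34234 gene names in 20 libraries, where -8.879 stands for 0 TPM. Cutadapt, fastp, Salmon 0.14.1, HTSeq 0.11.0 and mm10 are named in the submitters' processing notes, and which tool made the TPM is not given in the sources used here. As TPM keep no counts, depth is unknown, and no interval or detection limit that needs it is given. Names were matched to GENCODE M21 (33928 found).

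Values were taken out of the log, and nuclear protein-coding genes were rescaled to make up the whole TPM total per library. A set of 13 satellite-like models was left out of that total, a choice made after seeing the data. Genes that reached 1 TPM in 5 or more libraries entered limma 3.58.1 (R 4.3.3), on log2(rescaled TPM + 1), with 4 group means, trended variance, two-sided tests and Benjamini-Hochberg adjustment over 11809 genes (threshold 0.05). The fits used 20 libraries (16 residual degrees of freedom) or 18 without GYY_PD1 replicates 1 and 4 (14), and were checked on simulated data. Shares of TPM were compared by exact permutation of 252 or 56 splits.

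Genes named in the text were taken from those with the smallest p, and not all of these are named. They were 10 per direction and fit (5 for the interaction), at a mean of at least 5 rescaled TPM and the same direction in both fits. Of the 10 lower in the fit of all libraries, Nme2 alone is named. Up to 4 per list and fit could also be named. A set of 13 was always given, and others are marked. The comparison and the lists were chosen with earlier results of these data known. Replicates are separate samples of treated mice, per the labels, and the labels record no batch. Alternatives covered pseudocounts, filters, scalings, weights, a block on the replicate number and each library left out. Promoters are RefSeq sequences on GRCm38.p6.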

Additional observations from a re-analysis of the deposited data

Results flagged for a closer look

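Single libraries far from the other 4 of their group were looked for by Dixon's test at its 95% critical value for 5 samples. It was applied to the library composition measures, the list means and a part of the genes named. Coa6, Lamtor4, Sp110 and Hvcn1, each highest in GYY_PD1 replicate 1, were not among the genes tested. Of 192 tests 41 marked a library, where chance marks about 1 in 20 groups, and 27 of the 41 were GYY_PD1 replicate 1.

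GYY_PD1 replicate 1 had the lowest list mean of its group for 33 of 41 lists, and in 21 of these it was far enough from the other 4 to be marked. On the log2(rescaled TPM + 1) scale it stood at 3.77 for type I interferon, 6.42 for MHC class I, 4.25 for checkpoint genes, 3.56 for sulfide metabolism, 4.72 for NRF2 targets and 4.68 for both ferroptosis genes and SWI/SNF subunits. Oxidative phosphorylation was at 5.08, glycolysis at 6.36, the hypoxia response at 5.02, ribosomal proteins at 6.80 and lysosomal genes at 6.64. The stress lists were at 5.17 for the integrated stress response, 5.57 for the unfolded protein response and 5.70 for heat shock proteins. Growth lists were at 3.47 for p53 targets, 5.08 for MYC targets, 3.49 for mitosis and 4.44 for DNA replication, while immediate early genes were at 4.31 and macrophage markers at 5.13. Single genes did not all share this direction in the library. Ifih1 (8.20 rescaled TPM), Trim30a (1.49) and Cth (10.5) were the lowest of their group, and Cd180 (50.7), H2-T22 (260.6) and Erap1 (260.5) the highest.

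GYY_PD1 replicate 2 was the highest of its group for the interferon gamma genes Irgm1 (209 rescaled TPM), Gbp2 (252.03) and Cxcl9 (83.9). GYY_PD1 replicate 3 was the highest for adipocyte markers (list mean 8.80), Adipoq (422 rescaled TPM), Lpl (573) and Col1a1 (711). GYY_PD1 replicate 4 was the highest for Cbs (24.8 rescaled TPM), and replicate 5 the lowest for distal nephron markers (list mean 2.84). Among the controls, Veh_PD1 replicate 5 was the lowest for monocyte markers (list mean 4.14) and the highest for Hbb-bs (675 rescaled TPM) and Alas2 (20.6). Veh_PD1 replicate 4 was the highest for Col1a1 (57.6) and the lowest for Cth (89.4).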

How the results depend on the processing

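No gene passed an adjusted p of 0.05 in limma under most alternatives, and leaving out each library in turn gave 0 to 0 genes with all libraries and without GYY_PD1 replicates 1 and 4. With all libraries, keeping the satellite-like models in the coding total gave 1 gene (Gm10959, lower). Without replicates 1 and 4 it gave 10 (9 higher, mostly adipocyte genes, Adipoq among them), deposited log2 TPM gave 5 (3 higher), a fit of only the 2 groups gave 1 (Stfa2, lower), and only libraries over 20% satellite-like share gave 1 (Gm10337, higher). The cause of these was not tested. Coding genes at 1 deposited TPM, a threshold whose rescaled value depends on the coding share, differed by -1851 between GYY_PD1 and Veh_PD1, and by 482 without replicates 1 and 4. Of the log2 differences of single genes without replicates 1 and 4, 1133 kept direction and call, 1 (Adipoq, satellite-like models kept) passed the threshold and 16 changed sign. Cbs became 0.000738 with a pseudocount of 0.1, 0.077 on deposited log2 TPM and 0.28 with library weights, and ran from -0.417 to 0.279 with 1 library left out. Nqo1 became 0.026 on deposited log2 TPM and ran from -0.0945 to 0.0278 with 1 library left out. Hmox1 became 0.061 with weights and ran from -0.393 to 0.00211 with 1 library left out. Among libraries over 20%, Cd274 became -0.0018 and Cd3e -0.28. Of the list medians 2117 moved by less than the spread between replicates and 220 by more. Depth cannot be read from TPM, so low genes have no stated precision.

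The replicate number as a block changed no call: 0 genes passed in the 4 gene comparisons, and Cbs and Hmox1 became 0.31 and 0.067. Deviations of libraries with the same number correlated at 0.131, 0.223, -0.0921, 0.0291 and 0.171, and replicates 1, 2 and 5, but not 3 and 4, correlated best with their own number. As not every number exceeded 0.1 and the labels name no shared animal, litter or day, the numbers were not treated as pairs.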
